A study of Mus musculus with 12 samples.

Results

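The 10 genes described here belong to the BCL2 family, whose proteins decide whether a cell survives or enters apoptosis through its mitochondria. They were chosen by symbol from a count table of 16234 genes, and all 10 were found: *Mcl1*, *Bcl2*, *Bcl2l1*, *Bcl2a1b*, *Bcl2a1d*, *Bcl2l11*, *Pmaip1*, *Bbc3*, *Bax* and *Bak1*. The rule uses names and no measured value, but the members were chosen with earlier results of these data known. All 10 passed edgeR's filter on low counts, but *Bcl2a1b* and *Bcl2a1d* did so only through stimulated libraries.

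The RNA came from bone marrow-derived mast cells (BMMCs), which are mast cells grown from mouse bone marrow for 4 to 8 weeks with 10 ng/ml each of IL-3 and SCF. The mice carried 2 intact (WT), 1 intact (heterozygous, HZ) or no intact (knockout, KO) copies of *Elk4*, an ETS transcription factor of the ternary complex factor subfamily, which acts together with serum response factor. The knockout was conventional, so the gene was disrupted in every cell of the animal, and the mice were C57BL/6N littermates of both sexes, aged 6 to 12 weeks. Cells of each genotype were left unstimulated or were stimulated through the IgE receptor FcϵRI, with 0.5 µg/ml anti-DNP IgE overnight and 100 ng/ml of the antigen DNP-HSA for 1 h, which gave 6 groups of 2 libraries. Whether unstimulated cells also received IgE is not stated, and neither is whether the 2 replicates of a group came from separate mice or cultures. The p-values therefore measure only the spread between these libraries, which may be technical.

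The family has pro-survival members (MCL1, BCL2, BCL-XL from *Bcl2l1*, and A1 from the *Bcl2a1* genes), effectors that permeabilise the outer mitochondrial membrane (BAX and BAK), and BH3-only proteins that trigger death by binding the other classes (BIM from *Bcl2l11*, NOXA from *Pmaip1* and PUMA from *Bbc3*). NOXA binds mainly MCL1 and A1, whereas BIM and PUMA bind all pro-survival members. In mast cells, withdrawal of growth factors is known to engage BIM and PUMA, and crosslinking of FcϵRI is known to induce A1 and to promote survival.

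Libraries held between 29697958 and 35531667 counts on genes. *Elk4* itself (NCBI Gene 13714) had between 1867 and 3238 counts in each library, with no ordering by the number of intact copies. In CPM (counts scaled to a common library size, with TMM factors), unstimulated HZ held 86.0 to 93.2, WT 73.2 to 78.3 and KO 63.5 to 69.7. After antigen the libraries of WT and KO overlapped. Gene-level counts do not resolve a deletion inside the gene, so groups are called by their labels. Mast cell markers were abundant as a sum in every library, at 46890 to 57586 CPM for the 11 of 12 listed genes in the table. Of these genes, *Mcpt4* lay between 18.2 and 52.8 CPM and *Hdc* between 16.9 and 1116 CPM. Of the markers of other cell types, *Csf1r* of macrophages reached at most 0.774 CPM, whereas *Adgre1* of macrophages lay between 2.96 and 7.26 CPM. *Cd14* reached 5.04 CPM and *Ccr2* 3.03 CPM. *Ltf* of neutrophils was at 0 in all libraries, and *Lyz2* of macrophages and neutrophils reached 12.2 CPM. Other lists were not near 0. The 4 basophil markers summed to 527 to 753 CPM, most of it *Cd200r3* (454 to 667), whereas *Mcpt8*, a defining basophil gene, lay between 4.68 and 11.05 CPM. Their sum was 747 to 753 CPM in unstimulated HZ and 531 to 540 CPM in stimulated HZ. The 6 megakaryocyte and erythroid markers summed to 1511 to 2422 CPM, nearly all *Itga2b*, with the highest values in unstimulated HZ (2414 to 2422) and the lowest in stimulated HZ (1511 to 1536). *Pf4*, which defines megakaryocytes, reached at most 0.144 CPM. The summed level of the 9 macrophage and monocyte markers moved with antigen, from 38.4 to 61.1 CPM in unstimulated and 61.8 to 75.3 CPM in stimulated libraries, most of it *Cd68*. For the 3 eosinophil markers in the table the sum was 0.858 to 2.36 CPM in unstimulated and 3.41 to 4.97 CPM in stimulated libraries. The part of these lists in the differences between states and genotypes was not tested.

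Levels of different genes are comparable only per length. The gene lengths behind the deposited FPKM values were not checked, and the order of the genes rests on them. On this scale the effector *Bax* had the highest level of the 10 genes in unstimulated WT cells. It stood at 147 ± 1.06 FPKM (SD, n = 2), followed by *Mcl1* at 47.1 ± 0.173, *Bbc3* at 43.4 ± 2.01, *Bcl2* at 41.3 ± 1.91 and *Bak1* at 34.9 ± 1.15. The levels of *Bbc3* and *Bcl2* overlapped between libraries, and so did those of *Bcl2l1* (10.6 ± 0.419 FPKM) and *Pmaip1* (10.1 ± 0.894 FPKM), the next in the order. *Bcl2l11* followed at 2.65 ± 0.128 FPKM, *Bcl2a1d* at 0.0614 ± 0.0271 FPKM, and *Bcl2a1b* was at 0. After 1 h of antigen in WT, the order was *Bax* (146 ± 1.37 FPKM), *Mcl1* (72.7 ± 0.351), *Bcl2* (40.1 ± 0.308), *Pmaip1* (34.3 ± 1.23), *Bak1* (30.6 ± 0.499), *Bbc3* (11.8 ± 0.730), *Bcl2l11* (8.97 ± 0.235), *Bcl2l1* (7.08 ± 0.301), *Bcl2a1d* (2.20 ± 1.11) and *Bcl2a1b* (0.815 ± 0.139), with no overlap between the libraries of neighbours. *Bbc3* had moved from the third place to the sixth and *Pmaip1* from the seventh to the fourth.

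**Figure D1:**
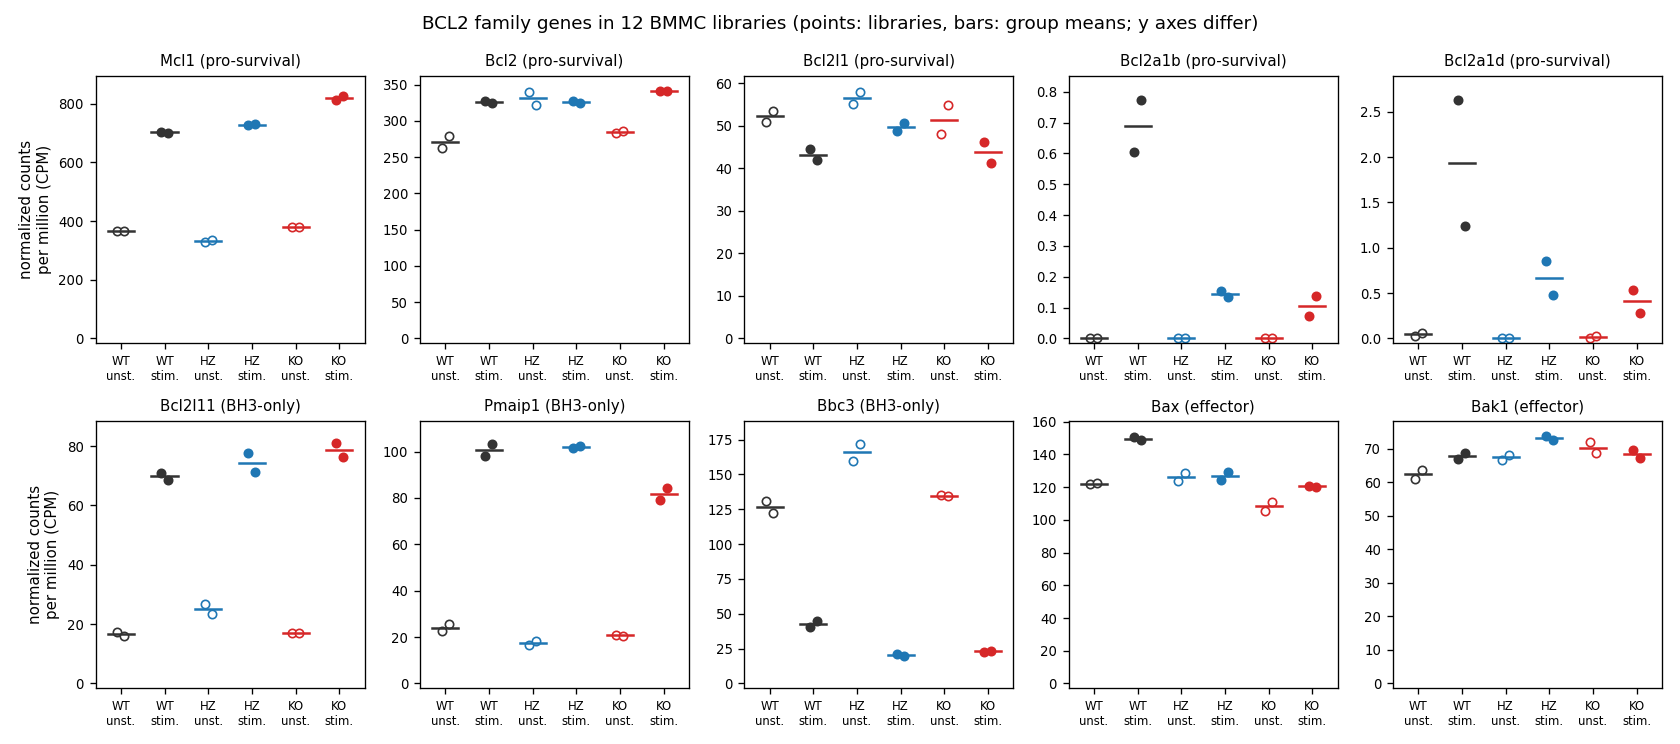
Normalised CPM (y axis, a scale of its own in each panel) of the 10 BCL2 family genes in the 6 groups (x axis), with a point for each of the 2 libraries of a group, open for unstimulated and filled for stimulated, and a bar for the group mean. *Mcl1*, *Bcl2l11* and *Pmaip1* were higher and *Bbc3* was lower in every stimulated than in every unstimulated library, whereas *Bax* lay between 105 and 151 CPM and *Bak1* between 61.1 and 74.0 CPM.

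The first comparison asks how the family responds to antigen. The *Bcl2a1* pair, near 0 in unstimulated cells, passed the filter on low counts only through stimulated libraries, so its calls are given as a description and the counts here are of the other 8 members. In WT, 5 of these rose and 2 fell at an adjusted p below 0.05 (quasi-likelihood test of edgeR, Benjamini-Hochberg), where 45.3% of the 12208 genes tested passed in either direction, 22.4% upwards and 22.9% downwards. With a 2-fold change required as well, 3 of the 8 passed, as did 6.77% of all genes. In HZ, 4 rose and 2 fell, where 64.4% of all genes passed, 32.9% upwards and 31.6% downwards, and 4 changed at least 2-fold (14.3% of all genes). In KO, 5 rose and 2 fell, where 40.8% of all genes passed, 20.4% upwards and 20.5% downwards, and 4 changed at least 2-fold (6.61% of all genes). The median log2 fold change of the 8 was 0.28 in WT, 0.06 in HZ and 0.21 in KO, beside -0.01, 0.00 and -0.01 for all genes tested. With the pair included, 7 members rose in WT and 6 each in HZ and KO. The median of all 10 was then 0.61, 0.62 and 0.69, or 0.61, 0.41 and 0.31 with values against libraries at 0 set to their lower bound. With library totals in place of TMM factors, the median of all genes moved by -0.31 in WT, -0.23 in HZ and -0.29 in KO. Of all 10 members, the pair included, 5 then rose and 3 fell in WT. In HZ, 5 rose and 4 fell, and in KO, 4 rose and 4 fell. No share of all genes is given for that scaling, so these counts have nothing to be read against.

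*Mcl1* (NCBI Gene 17210) encodes a short-lived pro-survival protein on which mast cells depend. Its counts in replicates 1 and 2 were 12171 and 12845 in unstimulated WT, 11404 and 11112 in unstimulated HZ and 14226 and 13484 in unstimulated KO. After antigen, WT had 20921 and 20846, HZ 23821 and 21566 and KO 22593 and 23792. All 6 stimulated libraries lay above all 6 unstimulated ones. On the CPM scale, *Mcl1* rose from 367 ± 0.133 to 702 ± 3.07 in WT, from 333 ± 6.07 to 728 ± 2.59 in HZ and from 379.7 ± 0.460 to 819 ± 10.4 in KO (SD, n = 2). The log2 fold change was 0.93 ± 0.03 (standard error) for WT, 1.13 ± 0.03 for HZ and 1.11 ± 0.03 for KO, with adjusted p = 8.57e-32, 2.91e-35 and 5.06e-35.

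*Bcl2* (NCBI Gene 12043), the founding pro-survival member, changed little. Its counts were 8719 and 9773 in unstimulated WT, 11801 and 10633 in unstimulated HZ and 10603 and 10146 in unstimulated KO. They were 9728 and 9654 in stimulated WT, 10736 and 9596 in stimulated HZ and 9479 and 9811 in stimulated KO. Raw counts of stimulated and unstimulated libraries overlapped in every genotype except KO, whereas the CPM values of WT and KO did not overlap and were higher after antigen. Its log2 fold change was 0.26 ± 0.03 in WT (adjusted p = 3.79e-09), -0.02 ± 0.03 in HZ (adjusted p = 0.553) and 0.26 ± 0.03 in KO (adjusted p = 5.05e-09). The direction in WT and KO rests on the scaling, since library totals gave -0.04 and -0.03. With library totals *Bcl2* was lower in HZ (-0.25, adjusted p = 3.76e-09).

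*Bcl2l1* (NCBI Gene 12048), which encodes BCL-XL, was lower after antigen in all genotypes. Its counts were 1686 and 1872 in unstimulated WT, 1915 and 1909 in unstimulated HZ and 1798 and 1942 in unstimulated KO, against 1320 and 1247, 1599 and 1495, and 1284 and 1188 after antigen. The stimulated values lay below the unstimulated ones within each genotype. It fell by 0.27 ± 0.07 on the log2 scale in WT (adjusted p = 0.000717), by 0.19 ± 0.07 in HZ (adjusted p = 0.0123) and by 0.23 ± 0.07 in KO (adjusted p = 0.00459). Library totals gave -0.58, -0.42 and -0.52, with adjusted p = 3.14e-10, 3.21e-07 and 5.87e-09. Without replicate 2 of unstimulated HZ or replicate 1 of stimulated HZ the adjusted p was 0.114 and 0.0994, and without replicate 2 of unstimulated or of stimulated KO it was 0.208 and 0.155.

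*Bcl2a1b* (NCBI Gene 12045) and *Bcl2a1d* (NCBI Gene 12047) are near-identical copies of the gene for A1, a pro-survival protein known as an early response gene of activated mast cells and other leukocytes. In the GENCODE annotation vM21, their coding sequences of 519 bases differed at 6 bases (98.8% identity). Over all windows of 100 bases of the transcript, 56.8% of those of *Bcl2a1b* and 54.7% of those of *Bcl2a1d* occurred in another *Bcl2a1* gene or an overlapping model. How the authors' counting treated reads that fit several copies is not stated, so values of single copies are uncertain. The first 90 coding bases show how little separates them, with the 2 bases that differ in capitals:
Bcl2a1b: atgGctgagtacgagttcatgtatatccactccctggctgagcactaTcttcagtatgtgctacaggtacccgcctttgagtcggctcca
Bcl2a1d: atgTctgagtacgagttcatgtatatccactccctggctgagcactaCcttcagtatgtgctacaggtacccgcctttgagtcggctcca

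*Bcl2a1b* had no count in any of the 6 unstimulated libraries, and 18 and 23 counts in stimulated WT, 5 and 4 in stimulated HZ and 2 and 4 in stimulated KO. *Bcl2a1d* had 1 and 2 counts in unstimulated WT, 0 and 0 in unstimulated HZ and 0 and 1 in unstimulated KO, against 78 and 37 in stimulated WT, 28 and 14 in stimulated HZ and 15 and 8 in stimulated KO. Both copies were higher in every stimulated library than in every unstimulated one, and every stimulated WT library lay above every stimulated HZ and KO library. A count of 0 allows up to 3 counts in a library, and against that floor in each library *Bcl2a1b* was at least 7.82-fold higher after antigen in WT and at least 1.62-fold higher in HZ. *Bcl2a1d* was at least 7.48-fold higher in HZ. For *Bcl2a1d*, the ratio of stimulated to unstimulated was 43.9 in WT (95% exact Poisson interval 14.6 to 216) and 29.7 in KO (95% interval 4.82 to 1222), intervals that cover counting error only. In edgeR's fit with no filter on low counts, the adjusted p of *Bcl2a1b* was 0.00105 in WT, 0.0475 in HZ and 0.115 in KO, and that of *Bcl2a1d* was 2.92e-08, 1.16e-06 and 0.000627. With the filter, the adjusted p of *Bcl2a1b* in HZ was 0.0262, and between 0.0534 and 0.108 without any single HZ library. The sum of all 4 *Bcl2a1* genes was 1 and 2 counts in unstimulated WT and 99 and 61 after antigen, 0 and 0 against 34 and 18 in HZ, and 0 and 1 against 18 and 13 in KO.

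The 250 bases before the annotated start of both copies (RefSeq, build GRCm38.p6, matched by gene number) are shown because the copies moved together. A match is only a description of the letters. Capitals mark an AP-1 motif (TGANTCA), which 6.75% of the 32851 promoters in the table hold on either strand, and then an EGR motif (GCGNGGGCG, here on the reverse strand), which 4.7% hold. The first lies 164 to 158 bases before the start of *Bcl2a1b* and 114 to 108 before that of *Bcl2a1d*, and the second 82 to 74 and 38 to 30 bases before.
Bcl2a1b, chr9:89199023-89199272, + strand: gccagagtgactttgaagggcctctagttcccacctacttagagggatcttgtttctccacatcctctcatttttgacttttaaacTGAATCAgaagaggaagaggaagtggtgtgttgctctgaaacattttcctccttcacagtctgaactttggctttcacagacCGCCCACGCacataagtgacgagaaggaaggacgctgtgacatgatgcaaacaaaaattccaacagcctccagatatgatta
Bcl2a1d, chr9:88731851-88732100, - strand: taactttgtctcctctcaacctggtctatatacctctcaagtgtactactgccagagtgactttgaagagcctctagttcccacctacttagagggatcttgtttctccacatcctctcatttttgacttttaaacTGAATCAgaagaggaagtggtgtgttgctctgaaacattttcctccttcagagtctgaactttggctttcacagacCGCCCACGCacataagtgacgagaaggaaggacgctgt

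Among the BH3-only genes, 2 rose and 1 fell in every genotype. *Bcl2l11* (NCBI Gene 12125) encodes BIM. It had 572 and 561 counts in unstimulated WT, 932 and 776 in unstimulated HZ and 643 and 604 in unstimulated KO. After antigen, WT had 2110 and 2040, HZ had 2543 and 2110, and KO had 2253 and 2193. All stimulated libraries lay above all unstimulated ones, and the unstimulated HZ libraries lay above those of WT and KO. The log2 fold change was 2.07 ± 0.07 in WT, 1.56 ± 0.07 in HZ and 2.20 ± 0.07 in KO, with adjusted p = 1.45e-28, 8.99e-25 and 5.3e-30.

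*Pmaip1* (NCBI Gene 58801) encodes NOXA, which binds MCL1 and promotes its degradation. It had 748 and 890 counts in unstimulated WT, 579 and 599 in unstimulated HZ and 787 and 727 in unstimulated KO. With antigen, WT reached 2920 and 3082, HZ 3337 and 3031, and KO 2200 and 2425. All stimulated libraries were higher than all unstimulated ones, and the stimulated KO libraries were the lowest of the stimulated libraries. It rose by 2.07 ± 0.06 on the log2 scale in WT, 2.55 ± 0.07 in HZ and 1.98 ± 0.07 in KO, with adjusted p = 6.51e-31, 4.59e-34 and 9.92e-30.

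*Bbc3* (NCBI Gene 170770) encodes PUMA and was the only member to fall at least 2-fold, which it did in each genotype. It had 4348 and 4276 counts in unstimulated WT, 5550 and 5665 in unstimulated HZ and 5065 and 4769 in unstimulated KO. After antigen, WT was left with 1212 and 1327, HZ with 699 and 592, and KO with 625 and 674. The stimulated HZ and KO libraries lay below those of WT, although their unstimulated libraries lay above. On the CPM scale, *Bbc3* dropped from 127 ± 6.37 to 42.7 ± 2.66 in WT, from 166 ± 8.47 to 20.7 ± 0.901 in HZ and from 135 ± 0.471 to 22.9 ± 0.676 in KO (SD, n = 2). The log2 fold change was -1.57 ± 0.05 in WT, -3.00 ± 0.06 in HZ and -2.55 ± 0.06 in KO, with adjusted p = 8.57e-29, 2.84e-39 and 3.5e-36. Leaving out single libraries kept it between -1.64 and -1.51 in WT, between -3.05 and -2.95 in HZ and between -2.59 and -2.52 in KO.

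The effectors changed little. *Bax* (NCBI Gene 12028) had 4041 and 4286 counts in unstimulated WT, 4298 and 4247 in unstimulated HZ and 3948 and 3943 in unstimulated KO, against 4473 and 4428, 4085 and 3819, and 3364 and 3453 after antigen. Raw counts were higher after antigen in WT and lower in HZ and KO, with no overlap between the states. After normalisation, its log2 fold change was 0.29 ± 0.04 in WT (adjusted p = 1e-07), 0.01 ± 0.04 in HZ (adjusted p = 0.909) and 0.15 ± 0.04 in KO (adjusted p = 0.00276, and 0.0885 without replicate 1 of unstimulated KO). With library totals these values were -0.02, -0.23 and -0.13, so the direction rests on the scaling.

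*Bak1* (NCBI Gene 12018), the other effector, had 2025 and 2228 counts in unstimulated WT, 2319 and 2252 in unstimulated HZ and 2701 and 2437 in unstimulated KO. After antigen it had 1992 and 2045, 2428 and 2145, and 1940 and 1941. Counts overlapped between the states in WT and HZ and were lower after antigen in KO. The log2 fold change was 0.12 ± 0.05 in WT (adjusted p = 0.063), 0.12 ± 0.05 in HZ (adjusted p = 0.0481) and -0.04 ± 0.05 in KO (adjusted p = 0.624), and library totals gave -0.19 in WT, -0.11 in HZ and -0.33 in KO. Leaving out any HZ library put the adjusted p in HZ between 0.0665 and 0.179. In GENCODE vM21, *Bak1* overlaps *Ggnbp1* on the opposite strand, and whether the counting used strand is not stated, so reads of the 2 genes may not be told apart.

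**Figure D2:**
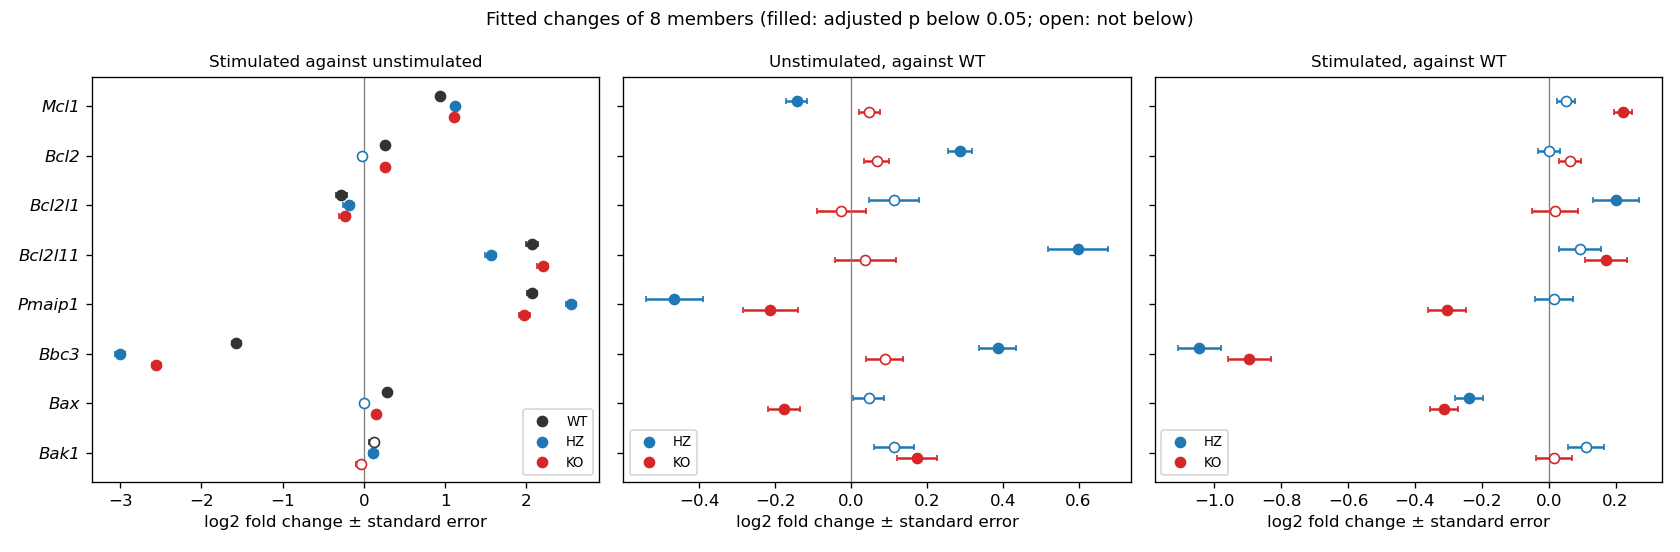
Fitted log2 fold changes with standard errors (x axes, 3 scales) of the 8 members other than the *Bcl2a1* pair (y axis), for antigen in each genotype (left) and for HZ and KO against WT in unstimulated (middle) and stimulated cells (right). Filled points had an adjusted p below 0.05. *Bbc3* lies at -1.57 in WT, -3.00 in HZ and -2.55 in KO in the left panel.

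The size of the response was compared between genotypes with interaction terms in the same model. It differed from WT for 2 members in KO, where 9.27% of all genes passed (5.44% with a higher and 3.83% with a lower value), and for 6 members in HZ, where 38.5% of all genes passed (19.9% and 18.6%). A difference of at least 2-fold was reached by 0 members in KO and 1 in HZ, beside 0.704% and 5.99% of all genes. In KO, the fall of *Bbc3* was larger by 0.98 ± 0.08 on the log2 scale (difference -0.98, adjusted p = 2.71e-13) and the rise of *Mcl1* was larger by 0.17 ± 0.04 (adjusted p = 0.00143). In HZ, *Bbc3* fell further than in WT by a log2 difference of -1.43 ± 0.08 (adjusted p = 1.03e-19). The rise of *Pmaip1* was larger by 0.48 ± 0.09 (adjusted p = 3.48e-05) and that of *Mcl1* by 0.19 ± 0.04 (adjusted p = 5.42e-05). The response of *Bcl2l11* was smaller in HZ (-0.50 ± 0.10, adjusted p = 5.69e-05), and the log2 changes of *Bcl2* (-0.29 ± 0.05, adjusted p = 1.53e-06) and *Bax* (-0.29 ± 0.06, adjusted p = 0.000106) were lower there than in WT. With library totals both differences were -0.21 (adjusted p = 0.000264 and 0.0038). *Bcl2* then stood at -0.04 in WT beside -0.25 in HZ, and *Bax* at -0.02 beside -0.23, so on that scale the HZ change was the larger one. Both comparisons share the WT libraries. In stimulated cells, HZ did not pass edgeR's test against WT in *Pmaip1* (log2 difference 0.02, adjusted p = 0.849) or *Mcl1* (0.05, adjusted p = 0.138). Nor did it in *Bcl2l11* (0.09, adjusted p = 0.265) or *Bcl2* (0.00, adjusted p = 0.997). In unstimulated cells the differences of these genes, in the same order, were -0.46, -0.14, 0.60 and 0.29. For *Bcl2a1b* no difference in response could be estimated, since all unstimulated libraries were at 0, and for *Bcl2a1d* it was -0.79 in KO (95% interval -7.26 to 5.68) and 2.10 in HZ (-1.99 to 6.18).

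To see where *Bbc3*, *Bcl2l11* and *Mcl1* might carry letters known to be read by ETS and other factors, 10 motifs were searched on both strands of the 250 bases before the start. These were an ETS core (CCGGAAG), CRE (TGACGTCA) and its core (TGACG, which the full site contains), AP-1 (TGANTCA), an E-box (CACGTG), FOXO (GTAAACA), EGR (GCGNGGGCG), NFAT (GGAAAA), kappa B and the CArG box. Promoters were listed for 9 of the 10 members, 14 in all, and *Pmaip1* was not among them. For *Mcl1*, *Bcl2*, *Bbc3* and the second promoter of *Bcl2l1*, no GENCODE vM21 transcript held the first bases after the listed start near its own start. Those starts, and distances from them, rest on RefSeq alone. The ETS core, which 6.91% of all promoters hold, was in the promoter of *Mcl1* at 63 to 57 bases before the start and in 1 of 2 promoters of *Bcl2l11* at 105 to 99 bases. The CArG box (1.47% of all promoters) and the full CRE (1.55%) matched no listed promoter of a member. The NFAT letters, found in 20.4% of all promoters, were in those of both *Bcl2a1* copies and *Bak1* and in 2 of 3 of *Bcl2l1*, and the CRE core, found in 17.8%, in those of both *Bcl2a1* copies and *Bcl2* and in 1 of *Bbc3*. Of the 3 promoters listed for *Bbc3*, the first held kappa B (3.9% of all promoters) and EGR matches. The second held a FOXO (3.17%) and an EGR match, and the third an E-box (6.02%). Among other members, the second promoter of *Bcl2l1* also held a kappa B match and that of *Bax* an E-box. The promoters of the 3 genes are shown with the ETS core in capitals for *Mcl1*, FOXO, ETS (reverse strand) and EGR in that order for *Bcl2l11*, and overlapping kappa B matches followed by EGR for *Bbc3*.
Mcl1, chr3:95658471-95658720, + strand: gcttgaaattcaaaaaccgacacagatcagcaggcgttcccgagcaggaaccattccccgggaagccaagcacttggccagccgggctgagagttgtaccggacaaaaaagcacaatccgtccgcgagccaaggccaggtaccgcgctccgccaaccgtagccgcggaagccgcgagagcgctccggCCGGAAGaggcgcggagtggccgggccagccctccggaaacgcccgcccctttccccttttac
Bcl2l11, chr2:128125788-128126037, + strand: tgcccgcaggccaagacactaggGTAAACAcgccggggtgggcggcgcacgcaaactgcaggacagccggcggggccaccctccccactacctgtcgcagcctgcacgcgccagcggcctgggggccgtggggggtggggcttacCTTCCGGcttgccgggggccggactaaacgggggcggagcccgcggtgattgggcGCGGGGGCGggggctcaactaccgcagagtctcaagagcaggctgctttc
Bbc3, chr7:16309333-16309582, + strand: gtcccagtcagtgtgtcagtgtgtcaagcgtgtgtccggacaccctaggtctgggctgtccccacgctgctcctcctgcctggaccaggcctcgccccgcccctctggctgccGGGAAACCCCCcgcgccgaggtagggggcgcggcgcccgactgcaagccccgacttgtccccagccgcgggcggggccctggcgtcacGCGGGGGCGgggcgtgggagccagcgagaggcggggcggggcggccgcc

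The second comparison sets the *Elk4* genotypes side by side, first in unstimulated cells. The origin of the 2 libraries of a group is not stated, so genotype cannot be told apart from mouse or culture. In KO against WT, 1 member was higher and 2 were lower (44.6% of all genes passed, 22.9% higher and 21.7% lower), and none passed the 2-fold threshold, which 7.51% of all genes did. *Bak1* was higher by 0.17 ± 0.05 on the log2 scale (adjusted p = 0.00624), *Bax* was lower (-0.18 ± 0.04, adjusted p = 0.000552) and *Pmaip1* was lower (-0.21 ± 0.07, adjusted p = 0.0135). The call of *Bak1* was lost without replicate 1 of WT (adjusted p = 0.0742) or of KO (0.0924), and that of *Pmaip1* without replicate 2 of WT (0.31) or of KO (0.081). The difference in *Bbc3* was 0.09 on the log2 scale (95% interval -0.01 to 0.19), in *Mcl1* 0.05 (-0.01 to 0.10) and in *Bcl2l11* 0.04 (-0.13 to 0.20).

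In unstimulated HZ against WT, 3 members were higher and 2 lower (51.4% of all genes passed, 25.4% higher and 26% lower), again with none at the 2-fold threshold, which 9.15% of all genes passed. *Bcl2l11* was higher by 0.60 ± 0.08 (adjusted p = 8.1e-09), *Bbc3* by 0.39 ± 0.05 (adjusted p = 3.21e-09) and *Bcl2* by 0.29 ± 0.03 (adjusted p = 2.63e-10). *Pmaip1* was lower (-0.46 ± 0.07, adjusted p = 6.57e-07), as was *Mcl1* (-0.14 ± 0.03, adjusted p = 2.42e-05). Unstimulated KO differed from HZ in 6 members, 2 higher and 4 lower (45.2% of all genes passed, 23.4% higher and 21.8% lower), none of them 2-fold (3.36% of all genes), and among these *Bcl2l11* differed most (-0.56 ± 0.08, adjusted p = 4.02e-08). The levels of *Bcl2l11*, *Bbc3* and *Bcl2* in the heterozygote thus lay above those of both other genotypes, and those of *Mcl1* and *Pmaip1* below.

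After antigen, 2 members were higher and 5 lower in KO than in WT, where 40.4% of all genes passed, 21.2% higher and 19.2% lower. The *Bcl2a1* pair is among the 5, and of the other 8 members 2 were higher and 3 lower. *Bbc3* differed most among members with many counts (-0.90 ± 0.07, adjusted p = 3.73e-16), at 22.9 ± 0.676 CPM in KO and 42.7 ± 2.66 CPM in WT (SD, n = 2). *Bax* (-0.31 ± 0.04, adjusted p = 3.17e-08) and *Pmaip1* (-0.30 ± 0.06, adjusted p = 2.36e-05) were also lower. *Mcl1* was higher (0.22 ± 0.03, adjusted p = 1.91e-09), as was *Bcl2l11* (0.17 ± 0.06, adjusted p = 0.0271), a call lost without either WT library (0.0546 and 0.162) or without replicate 1 of KO (0.232).

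The *Bcl2a1* pair had more counts in stimulated WT than in stimulated KO, with a ratio of 6.50 for *Bcl2a1b* (95% exact Poisson interval 2.74 to 18.7) and 4.76 for *Bcl2a1d* (95% interval 3.02 to 7.80), both for counting error only. The adjusted p was 0.0214 for *Bcl2a1b* and 0.00404 for *Bcl2a1d* among genes that passed the filter, which the pair did only through stimulated libraries. Without the filter it was 0.109 and 0.00524, and DESeq2 gave 0.0609 and 0.00431. Without single libraries edgeR's adjusted p lay between 0.0629 and 0.173 for *Bcl2a1b*. For *Bcl2a1d* it was 0.155 without replicate 1 of WT, which held 78 of the 115 WT counts, and 0.0899 without replicate 2 of KO. When the 4 *Bcl2a1* genes were summed into 1 gene, the log2 fold change of KO against WT was -2.29 ± 0.56 (adjusted p = 0.000785). At the 2-fold threshold these 2 genes were the members called, where 7.76% of all genes passed. At 1.5-fold, the threshold of the study for this comparison, *Bbc3* was called as well, where 12.8% of all genes passed. The summed level of the dendritic cell markers, which was nearly all *Itgax*, was 4.31 to 5.00 CPM in stimulated WT, 1.46 to 1.62 in HZ and 0.934 to 1.39 in KO, and its part in the difference was not tested. It was 5.60 to 7.58 CPM in unstimulated WT, where the 2 genes held at most 2 counts.

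In stimulated HZ against WT, 1 member was higher and 4 lower (34.9% of all genes passed, 18.4% higher and 16.5% lower), 3 of them 2-fold (4.51% of all genes). The *Bcl2a1* pair is among the 4, and of the other 8 members 1 was higher and 2 were lower. With library totals, 3 members were higher and 4 lower, as *Mcl1* (0.08, adjusted p = 0.0178) and *Bak1* (0.14, adjusted p = 0.0409) also passed. No share of all genes is given for that scaling. *Bbc3* (-1.04 ± 0.07, adjusted p = 3.25e-18) and *Bax* (-0.24 ± 0.04, adjusted p = 8.89e-06) were lower. *Bcl2l1* was higher (0.20 ± 0.07, adjusted p = 0.0176), a call lost without replicate 2 of WT (0.152) or of HZ (0.117). The WT to HZ ratio of counts was 4.78 for *Bcl2a1b* (95% interval 2.29 to 11.2) and 2.87 for *Bcl2a1d* (2.00 to 4.19), with adjusted p = 0.0449 and 0.0412. Without the filter the adjusted p was 0.191 and 0.0665, and DESeq2 gave 0.12 and 0.0567. Without single libraries the number of members called fell from 5 to 2 or 3, mostly by the loss of this pair. Stimulated KO differed from HZ in 3 members (24.9% of all genes passed, 12.9% higher and 12% lower), none of them 2-fold (2.1% of all genes): *Mcl1* was higher (0.17 ± 0.03, adjusted p = 1.7e-06), *Pmaip1* lower (-0.32 ± 0.06, adjusted p = 1.76e-05), and *Bcl2l1* lower (-0.18 ± 0.07, adjusted p = 0.0425), the last a call lost without either HZ library (0.0706 and 0.208) or without replicate 2 of KO (0.439). For *Bbc3*, the log2 difference of KO from HZ after antigen was 0.15 (unadjusted 95% interval 0.01 to 0.29, adjusted p = 0.125).

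The make-up of the family changed with antigen on the FPKM scale. All shares and ratios between genes rest on the gene lengths behind that scale, which were not checked. Among 6 pro-survival genes (*Mcl1*, *Bcl2*, *Bcl2l1*, *Bcl2l2*, *Bcl2a1b* and *Bcl2a1d*), *Mcl1* held 43.5% ± 0.745 of the summed FPKM in unstimulated and 55.5% ± 0.481 in stimulated WT, 37.4% ± 1.03 before and 56.9% ± 0.0619 after antigen in HZ, and 44.2% ± 0.572 before and 59.4% ± 0.615 after it in KO (SD, n = 2). The share of *Bcl2* moved from 38.1% ± 0.970 to 30.6% ± 0.177 in WT. As counted, the pair of *Bcl2a1* genes together did not reach the share of *Bcl2l1*. In stimulated WT, *Bcl2a1d* held 1.67% ± 0.826 and *Bcl2a1b* 0.623% ± 0.114, against 5.40% ± 0.157 for *Bcl2l1*. Reads that fit several *Bcl2a1* copies may not have been counted, so the share of the pair may be too low for this ranking.

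Among 7 BH3-only genes (*Bcl2l11*, *Pmaip1*, *Bbc3*, *Bmf*, *Bid*, *Bad* and *Bik*), *Bbc3* held the largest share in unstimulated cells, 41.7% ± 1.96 in WT, 43.0% ± 0.171 in HZ and 39.8% ± 0.338 in KO. After antigen its share was 13.8% ± 0.735 in WT, 6.25% ± 0.293 in HZ and 7.62% ± 0.201 in KO. *Pmaip1* then held the largest share, 40.1% ± 1.10 in WT, 37.9% ± 0.0982 in HZ and 33.3% ± 1.40 in KO, up from 9.71% ± 0.849, 5.56% ± 0.0749 and 7.53% ± 0.166. The ratio of *Bbc3* to *Bcl2l11* in FPKM was 16.4 in both unstimulated WT libraries, 12.8 and 15.7 in HZ and 17.0 in both of KO. After antigen it was 1.24 and 1.40 for WT, 0.592 and 0.604 for HZ and 0.597 and 0.662 for KO. On the FPKM scale *Bbc3* thus lay above *Bcl2l11* in every unstimulated and every stimulated WT library. It lay below in every stimulated HZ and KO library. Which of the 2 transcripts was the more abundant rests on the gene lengths behind the FPKM values. In bulk RNA, fewer cells that express a gene and less RNA per cell cannot be told apart.

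**Figure D3:**
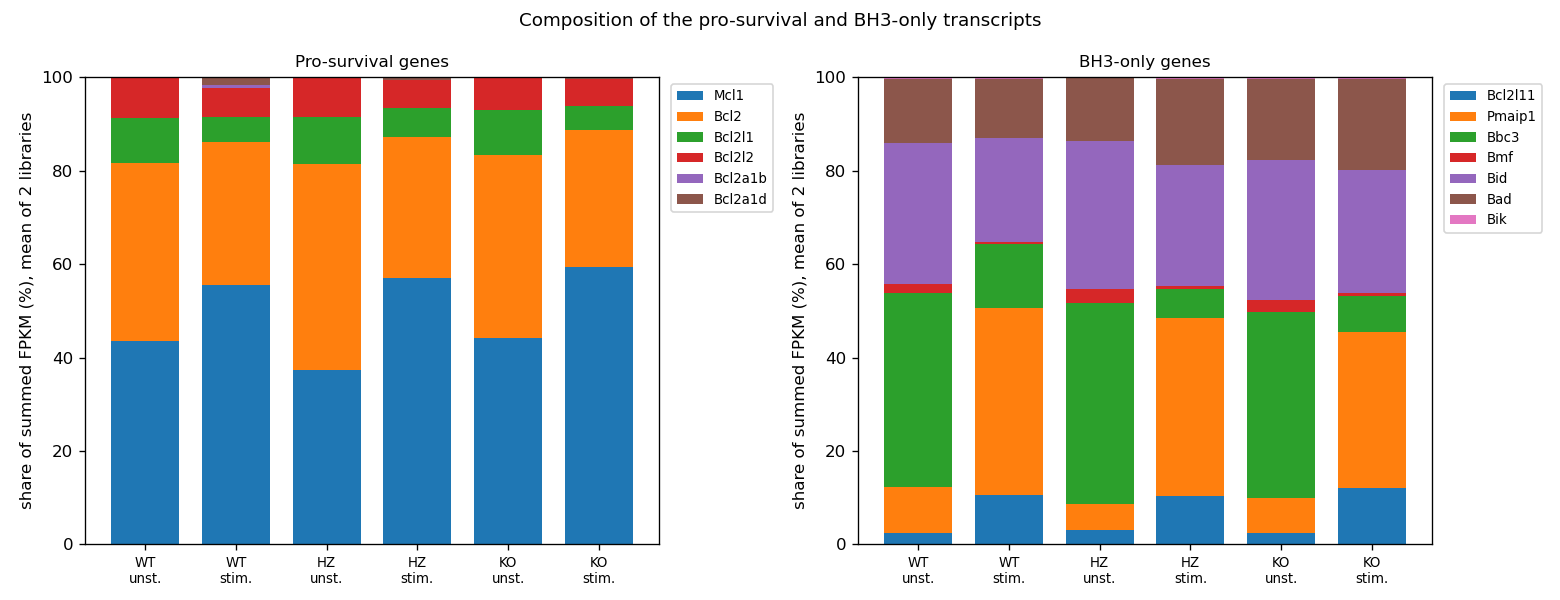
Mean share (y axis, % of summed FPKM, 2 libraries per group) of each gene within the 6 pro-survival genes (left) and within the 7 BH3-only genes (right) in the 6 groups (x axis). The share of *Mcl1* rose from 43.5% to 55.5% in WT, and that of *Bbc3* went from 41.7% to 13.8% in WT, from 43.0% to 6.25% in HZ and from 39.8% to 7.62% in KO.

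Of 16 other BCL2 family genes, 15 were in the table and 9 were tested. With library totals, 0 rose and 7 fell in WT after antigen, where the median of all genes was -0.32. No share of all genes is given for that scaling. With TMM factors, 0 rose and 4 fell, with a median log2 fold change of -0.10, where 22.4% of all genes rose and 22.9% fell. The largest of these changes was that of *Bmf*, which encodes another BH3-only protein and had 316 and 340 counts in unstimulated and 57 and 80 in stimulated WT (log2 fold change -2.06 ± 0.17, adjusted p = 2.66e-14). The libraries of the 2 states did not overlap. *Bid*, whose product links death receptors to mitochondria, fell by 0.42 ± 0.06 (adjusted p = 3.68e-08). In unstimulated KO against WT, 6 were higher and 1 lower, but 4 and 1 with library totals or with DESeq2 size factors. The median was 0.25 beside 0.02 for all genes, of which 22.9% were higher and 21.7% lower. *Bmf* was higher by 0.69 ± 0.14 (adjusted p = 3.28e-05) and *Bad*, a BH3-only gene whose product is held inactive by survival signalling, by 0.50 ± 0.08 (adjusted p = 3.53e-06). In stimulated KO against WT, 4 were higher and 0 lower, where 21.2% of all genes were higher and 19.2% lower. *Bad* was higher by 0.58 ± 0.09 (adjusted p = 4.32e-07) and *Bmf* by 0.62 ± 0.20 (adjusted p = 0.00944, lost without replicate 1 of WT or replicate 2 of KO, at 0.191 and 0.122).

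The same shares of all genes, which are those with TMM factors, apply to the next 3 lists. In WT with antigen, 22.4% rose and 22.9% fell. In KO against WT, 22.9% were higher and 21.7% lower before antigen, and 21.2% and 19.2% after it. With library totals, the median of all genes in WT with antigen was -0.32. Counts given for that scaling have no share of all genes beside them. Of 18 genes of the apoptosome, the caspases and the inhibitors of apoptosis, all tested, 4 rose and 5 fell in WT after antigen (median -0.02), and 2 rose and 12 fell with library totals. *Casp2*, an initiator caspase, fell by 1.44 ± 0.09 (adjusted p = 2.39e-18) and *Casp9*, the caspase of the apoptosome, by 0.57 ± 0.07 (adjusted p = 4.97e-10). *Cycs*, which encodes cytochrome c, rose by 0.57 ± 0.07 (adjusted p = 6.12e-10). In unstimulated KO against WT, 4 were higher and 6 lower. *Birc5*, which encodes survivin and is best known from dividing cells, had a log2 fold change of -1.33 ± 0.11 (adjusted p = 8.58e-14), and *Apaf1*, the scaffold of the apoptosome, one of -0.52 ± 0.06 (adjusted p = 6.73e-10). In stimulated KO against WT, 5 were higher and 4 lower (median 0.02).

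Of 20 tested regulators of the family, 9 rose and 6 fell in WT after antigen (3 and 13 with library totals). *Mdm2*, whose product degrades p53, rose by 2.01 ± 0.03 (adjusted p = 3.23e-44). The PIM kinases, which phosphorylate and inactivate BAD, were also higher, *Pim3* by 1.78 ± 0.05 (adjusted p = 1.86e-32) and *Pim1* by 1.06 ± 0.03 (adjusted p = 1.37e-32). In KO against WT, 6 were higher and 6 lower before antigen and 7 and 7 after it. Of 11 tested genes of the death receptor pathway, 3 rose and 4 fell in WT after antigen (2 and 7 with library totals). *Cflar*, which encodes the caspase-8 inhibitor FLIP, rose by 0.56 ± 0.06 (adjusted p = 1.16e-11), and *Tnfaip3*, which encodes the ubiquitin editor A20, fell by 0.67 ± 0.06 (adjusted p = 2.65e-13). In KO against WT, 2 were higher and 5 lower before antigen, and 3 and 4 after it, where *Tnfaip3* was higher by 2.79 ± 0.06 (adjusted p = 1.1e-37).

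*Bbc3*, *Pmaip1* and *Bax* are also known targets of p53, and 18 other such targets, of which *Mdm2*, *Fas* and *Tnfrsf10b* are also in the lists above, were set beside them. In unstimulated KO against WT, 15 of the 18 were lower and 2 higher, with a median log2 fold change of -0.82, where 21.7% of all genes tested were lower and 22.9% higher. After antigen, 14 were lower in KO than in WT and 2 higher, with a median of -0.97, where 19.2% of all genes were lower and 21.2% higher. In unstimulated HZ against WT, 13 were lower and 4 higher (median -0.41), where 26% of all genes were lower and 25.4% higher. In stimulated HZ, 15 were lower than in WT and 2 higher (median -0.58), beside 16.5% and 18.4% of all genes. KO and HZ were compared with the same WT libraries. The list was assembled with earlier results of these data known and is no independent evidence of its direction. *Mdm2* had 8946 and 9497 counts in unstimulated WT and 5379 and 4815 in KO, and 32245 and 32611 against 12216 and 12850 after antigen. Its log2 fold change in KO was -0.96 ± 0.03 before antigen (adjusted p = 3.37e-29) and -1.30 ± 0.03 after it (adjusted p = 9.89e-36). *Eda2r*, a receptor of the TNF family, was also lower, with log2 fold changes of -1.97 ± 0.10 (adjusted p = 3.05e-22) and -1.89 ± 0.10 (adjusted p = 1.02e-21). Beside these, the unstimulated difference was -0.21 in *Pmaip1*, -0.18 in *Bax* and 0.09 in *Bbc3*, which did not pass the test.

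In WT, antigen raised 11 of the 18 and lowered 2, with a median of 0.39, where 22.4% of all genes rose and 22.9% fell. With library totals 7 rose and 4 fell, where the median of all genes was -0.32. No share of all genes is given for that scaling. *Btg2*, an antiproliferative early response gene, rose by 5.07 ± 0.08 (adjusted p = 2.71e-44), *Gdf15* by 3.42 ± 0.06 (adjusted p = 1.24e-42) and *Plk3* by 2.87 ± 0.03 (adjusted p = 4.94e-52). *Bbc3* fell by 1.57 in the same cells, while *Pmaip1* rose by 2.07. The unstimulated WT libraries enter both this comparison and that of unstimulated KO with WT.

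**Figure D4:**
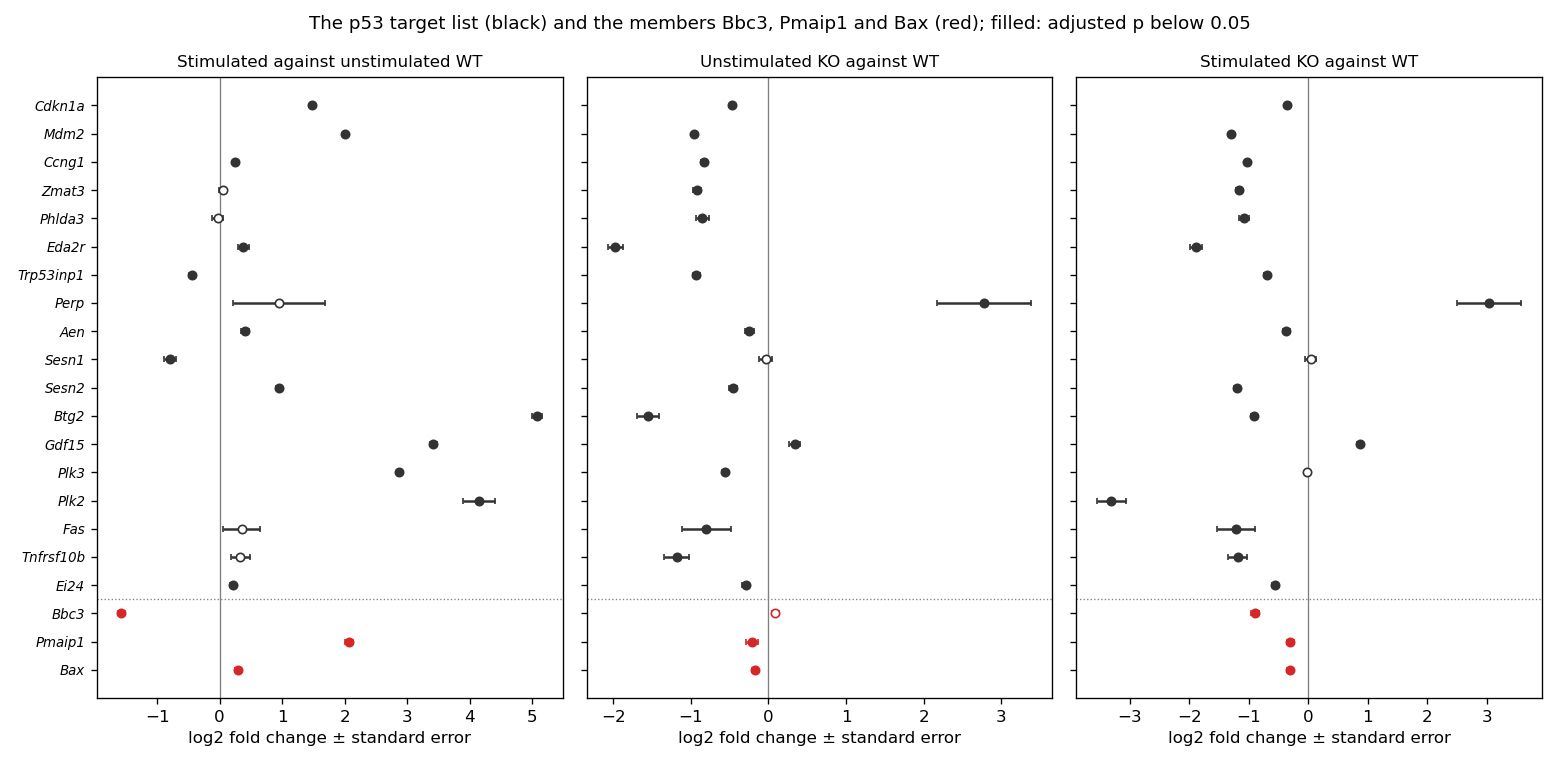
Log2 fold changes with standard errors (x axes, 3 scales) of 18 p53 targets (black) and of *Bbc3*, *Pmaip1* and *Bax* (red) for antigen in WT (left) and for KO against WT in unstimulated (middle) and stimulated cells (right). Filled points had an adjusted p below 0.05, and *Plk2* is not drawn in the middle panel because unstimulated KO held no count of it. In KO, 15 of 18 targets were lower before and 14 of 18 after antigen. In HZ, which is not drawn, 13 of 18 were lower than in WT before and 15 of 18 after antigen.

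The genes whose pattern over the 12 libraries was most like that of a member were found by the root mean square difference of centred log2 CPM values. *Bcl2l11* was nearest to *Il4* (0.13 log2 units, beside a standard deviation of 1.04 of *Bcl2l11* itself), *Havcr2* (0.15) and *Gimap5* (0.17). *Pmaip1* was nearest to *Topors* (0.12, beside 1.16), *Osgin2* (0.16) and *Cish* (0.16), and *Mcl1* to *M6pr* (0.06, beside 0.56), *Sub1* (0.07) and *Abl2* (0.08). The nearest to *Bbc3* were *Zkscan14* (0.31, beside 1.29), *Zfp46* (0.32) and *Zfp319* (0.34). For *Bcl2a1d* they were *Chac1* (0.43, beside 1.94), *Sgk1* (0.53) and *Errfi1* (0.55), and for *Bcl2a1b*, *Mdm2* (0.48, beside 1.38), *Mex3b* (0.50) and *Slc41a1* (0.53). The patterns mostly reflect the difference between stimulated and unstimulated libraries, which many genes share.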

How the data were processed

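RNA sequencing libraries of 12 BMMC samples were grouped by GEO's labels into 3 genotypes in 2 states. The deposited table held read counts per gene and FPKM values for 16234 genes. The submitters' processing notes name fastp, HISAT2, HTSeq and the build GRCm39; their versions, the annotation and the strand setting are not given in the sources used here. The authors' FPKM values scaled counts by library total, without TMM factors, which was checked on 4579 genes. The gene lengths behind these values were not checked. The study itself used DESeq with an adjusted p and a 2-fold threshold, or 1.5-fold for stimulated KO against WT.

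Counts were fitted with edgeR 4.0.16 (R 4.3.3) by quasi-likelihood, with 1 mean for each of the 6 groups, TMM factors (1.08 to 1.12 without antigen, 0.902 to 0.924 with it), filterByExpr, which kept 12208 genes, and Benjamini-Hochberg adjustment over all of these. The fit had 6 residual and 38.9 prior degrees of freedom and a biological coefficient of variation of 4.01%. The prior count for fold changes was 0.125. Error terms are standard errors of log2 fold changes, or SDs of 2 libraries. Scripts were tested on simulated data. Alternatives were DESeq2 1.42.0, limma 3.58.1 on log2(FPKM + 1) and log2(FPKM + 0.1), other scalings, filters and thresholds, a replicate block, summed *Bcl2a1* genes and leaving out each library.

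The members and pathway lists were chosen with earlier results of these data known. From each list and comparison, up to 4 genes could be named, those with the largest change among genes called, whose libraries did not overlap and averaged 100 counts or more in the group with more. Genes of like pattern were taken among tested genes with a mean of at least 5 CPM and at least 0.5 times the member's standard deviation. The lists were rerun under all alternatives, a step added after seeing the data. Promoters came from RefSeq (GRCm38.p6) by gene number, and coding sequences from GENCODE vM21.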

Additional observations from a re-analysis of the deposited data

Results flagged for a closer look

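The response to antigen differed between genotypes for 6 members in edgeR's test of the interaction. All 6 differed from WT in HZ and 2 of them in KO, where 38.5% and 9.27% of all genes tested passed. Against WT, the log2 response of *Bbc3* differed by -0.98 (adjusted p = 2.71e-13) for KO and by -1.43 (adjusted p = 1.03e-19) for HZ, and that of *Mcl1* by 0.17 (adjusted p = 0.00143) for KO and 0.19 (adjusted p = 5.42e-05) for HZ. In HZ, the responses of *Bcl2* (-0.29, adjusted p = 1.53e-06), *Bcl2l11* (-0.50, adjusted p = 5.69e-05), *Pmaip1* (0.48, adjusted p = 3.48e-05) and *Bax* (-0.29, adjusted p = 0.000106) also differed from WT. Both comparisons use the same WT libraries. Of these genes, only *Bbc3* and *Bax* were called between stimulated HZ and WT at the main settings. Groups of 2 libraries allow no test for single outlying libraries.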

How the results depend on the processing

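The scaling turned 7 directions of antigen against unstimulated cells. With library totals, *Bcl2* was at -0.04 in WT and -0.03 in KO, *Bax* at -0.02 in WT, -0.23 in HZ and -0.13 in KO, and *Bak1* at -0.19 in WT and -0.11 in HZ. With limma on FPKM, which also rests on library totals, the same values turned with each pseudocount and filter, at -0.04 and -0.03 for *Bcl2*, -0.02, -0.22 to -0.23 and -0.13 for *Bax*, and -0.18 to -0.19 and -0.11 for *Bak1*. The difference in the response of *Bcl2a1d* between HZ and WT turned to -0.73 with log2(FPKM + 1) and a mean of at least 0.5 FPKM, and its cause was not tested. A change of sign in a value past the threshold in neither fit is not counted here.

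The number of members called in stimulated HZ against WT went from 5 to 2 with DESeq2, 3 without a filter, 3 with at least 10 counts in every library, which removes the *Bcl2a1* pair, and 2 at an adjusted p below 0.01. No share of all genes is given for these settings. The number was 7 with library totals, 3 higher and 4 lower in place of 1 and 4, and 6 with limma on FPKM. In HZ with and without antigen, it went from 8 to 5 with at least 10 counts and to 5 at an adjusted p below 0.01. The 2-fold threshold left 5 of 9 members in WT and 5 of 8 in KO after antigen. It left 0 of 3 in unstimulated KO against WT, 0 of 5 in HZ against WT and 0 of 6 in KO against HZ. After antigen, it left 2 of 7 in KO against WT (3 at 1.5-fold, a setting added after seeing the data), 3 of 5 in HZ against WT and 0 of 3 in KO against HZ, and of the responses 0 of 2 for KO and 1 of 6 for HZ against WT. Leaving out single libraries gave 9 to 10 members for antigen in WT, 5 to 6 in HZ and 7 to 8 in KO. For unstimulated cells it gave 2 to 3 in KO against WT, 5 to 5 in HZ against WT and 5 to 7 in KO against HZ, and for stimulated cells 4 to 5, 2 to 3 and 2 to 3. The responses kept a count of 2 to 2 for KO and 6 to 6 for HZ. Of 520 member values from these fits, 478 kept their direction and side of the threshold, 39 lost the call, 3 gained it and 0 turned.

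Whether same-numbered libraries of a genotype were paired is not stated. Their deviations correlated across 9860 genes at -0.0226 in WT, 0.0629 in HZ and -0.0207 in KO. With 2 libraries per group, these values cannot tell whether the libraries were paired. With a replicate block, 4 rather than 5 members were called in stimulated HZ against WT, as *Bcl2a1b* had a log2 fold change of -2.21 (adjusted p = 0.0518), and no other member's call changed. Depth limits the *Bcl2a1* pair, which never exceeded 78 counts.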
